A study of Homo sapiens with 6 samples.

Results

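The 26S proteasome genes were followed in HT1080 cells with and without GPR56. They were taken as the protein-coding rows of the deposited table named PSMA, PSMB, PSMC, PSMD, PSME, PSMF or PSMG with a number, leaving out PSMB8 and PSMB9. This gave 46 genes of 58735. PSMC3IP, a recombination factor whose symbol starts the same way, was not counted. HT1080 is an established human fibrosarcoma line. Messenger RNA was sequenced from 3 wild-type (WT) libraries and 3 libraries of GPR56 knockout (KO) cells made with CRISPR-Cas9, all grown in DMEM with serum. The descriptions of both genotypes carry the solvent name DMSO, with no dose or time. The labels do not say how many KO clones were used, nor whether replicates came from cultures of their own. The p-values therefore cover the spread among these samples only, and that spread may be technical.

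The proteasome degrades proteins that carry chains of ubiquitin. Its core, the 20S particle, is a barrel of alpha rings outside and beta rings inside, and PSMB5, PSMB6 and PSMB7 carry the proteolytic sites. The 19S particle on its ends binds, unfolds and feeds in the substrates: its base holds the PSMC ATPases, and its lid holds the deubiquitinase PSMD14. Dedicated chaperones assemble both particles, and the PSME activators can take the place of the 19S particle. When the proteasome is impaired, the transcription factor NFE2L1 is known to raise proteasome gene transcription.

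The deposited unit is FPKM, a read count scaled to the gene's length and to a factor for each library. Turned back into whole reads, the libraries held 16410352 to 17276269 each. The library factor did not follow these totals. KO 3 held more reads than WT 1 (16955111 and 16434344), yet 1 read in 1 kb was worth more FPKM in KO 3 (0.0602 and 0.0591). ADGRG1, the gene of GPR56, was at 6.61, 6.07 and 6.87 FPKM in WT and at 2.68, 2.54 and 2.58 FPKM in KO. All KO libraries were lower (log2 fold change −1.06, SE 0.07, limma adjusted p = 6.24e-05). Mesenchymal markers were present (7 of 8 at a mean of at least 1 FPKM, THY1 being the exception). Of the epithelial, leukocyte, hepatocyte and endothelial markers, 0 reached a mean of 1 FPKM, and CDH1, PTPRC and ALB had 0 reads. Summed per library, none of the 5 lists overlapped between genotypes. Of all single genes tested, 54.7% did not overlap. The mesenchymal markers lay at 677.2 to 708.75 FPKM in WT and 742.16 to 839.99 FPKM in KO. They did not move together: FN1, CD44, SPARC, S100A4 and THY1 had higher means in KO, and VIM, COL5A1 and LOX lower ones. SPARC went from 182.5 to 278.4 FPKM and LOX from 9.59 to 4.35 FPKM. The epithelial markers lay at 0.33 to 0.38 and 0.90 to 1.0 FPKM, the hepatocyte markers at 0.24 to 0.39 and 0.42 to 0.69 FPKM, and the endothelial markers at 0.29 to 0.38 and 1.37 to 1.57 FPKM. Single genes made up most of these differences. They were CLDN4 (means of 0.33 and 0.906 FPKM), SERPINA1 (0.199 and 0.501 FPKM) and PECAM1 (0.326 and 1.23 FPKM). The hepatocyte marker APOA1 was lower in KO (0.14 and 0.0408 FPKM). The leukocyte sum was lower in KO (0.79 to 1.34 and 0.17 to 0.27 FPKM), and nearly all of it was ITGB2. Their part in the results was not tested. In bulk samples, fewer cells of a type and less RNA per cell cannot be told apart.

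Proteasome mRNA levels were close in both genotypes. Summed over the 46 genes they came to 2094.3, 2143.1 and 2203.4 FPKM in WT and 2233.9, 2324.8 and 2301.3 FPKM in KO. The KO libraries lay above the WT libraries by a ratio of means of 1.07. The proteasome took 0.734% to 0.750% of the reads of the WT libraries and 0.739% to 0.765% in KO, and these ranges overlapped. Summed FPKM and read shares weigh libraries and gene lengths differently. The part of the library factor in the ratio of 1.07 was not tested.

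Of the 46 genes, 43 reached the mean of 1 FPKM required for testing. PSMA6, PSMA8 and PSMB11 did not. Of the 43, 7 rose, 5 fell and 31 did not pass the test (limma on log2(FPKM + 1), adjusted over the 12000 genes tested, threshold 0.05). That is 27.9%, against 43.4% of all genes tested. By direction, 21.0% of all genes tested rose and 22.4% fell. The values of WT and KO libraries did not overlap for 17 members, 10 higher and 7 lower in KO (39.5%, against 54.7% of all genes tested). The median log2 fold change was 0.04 over the members and −0.01 over all genes tested.

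The differences were small as well as few. The log2 fold changes ran from −0.36 (PSMB10) to 0.45 (PSME1). Of the 43 members, 0 had mean levels that differed by 1.5-fold or more between genotypes, against 21.3% of all genes tested. On the log2(FPKM + 1) scale, the 95% interval of the difference lay within 1.5-fold in either direction for 40 members (93.0%, against 65.3% of all genes tested). The exceptions were PSMB10, PSMG3 and PSME1. The genes tested were not matched to the members for level. The added 1 shrinks the differences of low genes. PSMD9, at a mean of 1.3 FPKM, had a KO to WT ratio of 1.24 but a log2 fold change of 0.18. For low members such as PSMD9 and PSMG4 these intervals do not bound the ratio of FPKM. The number of calls changed when a library was left out: 2 members rose without WT 1 or without KO 2, 3 without KO 1 or without KO 3 and 4 without WT 2. Without KO 1, 1 member fell, and without WT 1, WT 2, KO 2 or KO 3, 3 fell. Only PSME1 and PSMD13 kept their call in all 14 alternative analyses.

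**Figure D1:**
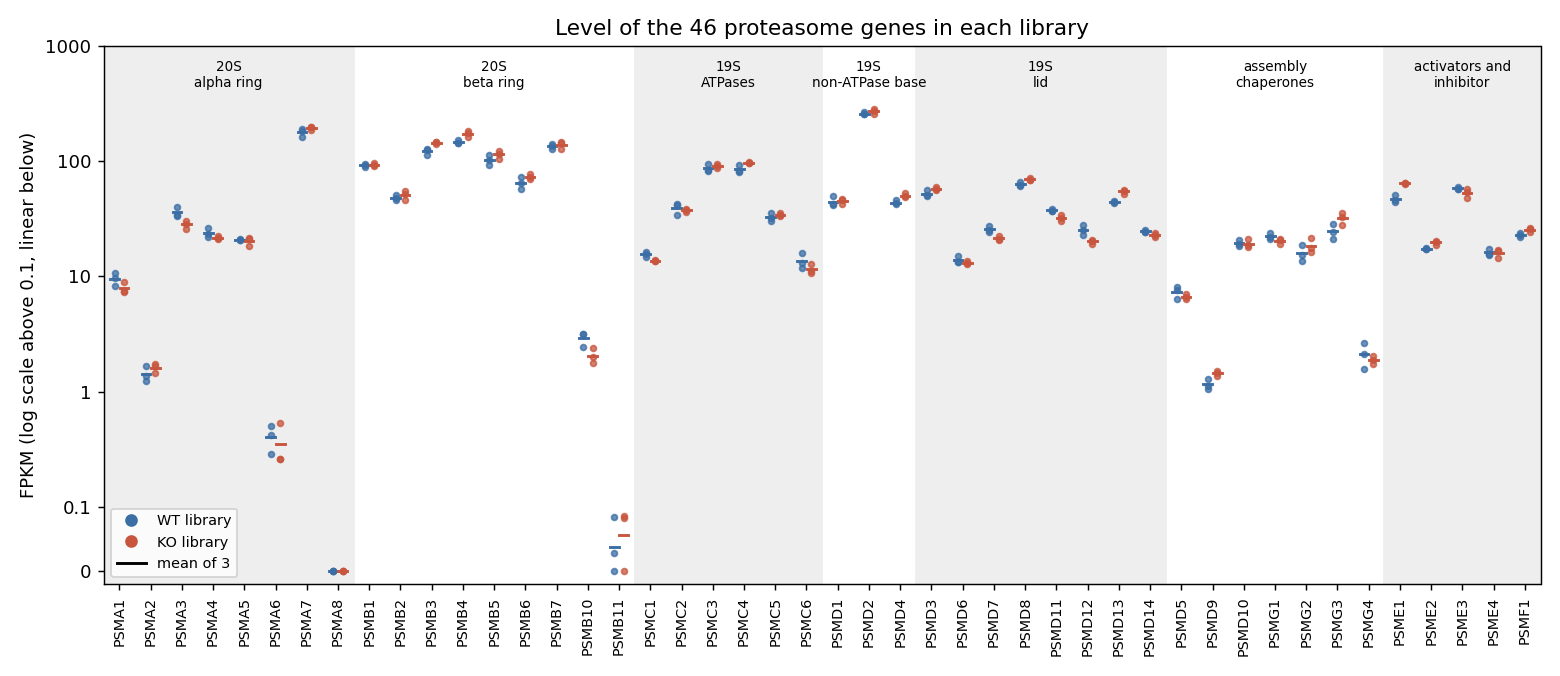
Level of the 46 proteasome genes in each library, in FPKM on an axis that is logarithmic above 0.1 and linear below. Points are libraries (3 WT, 3 KO), short lines are means of 3, and shading separates the parts of the proteasome. PSMD2 was highest at a mean of 265.4 FPKM, and WT and KO points lie beside each other for most genes.

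**Figure D2:**
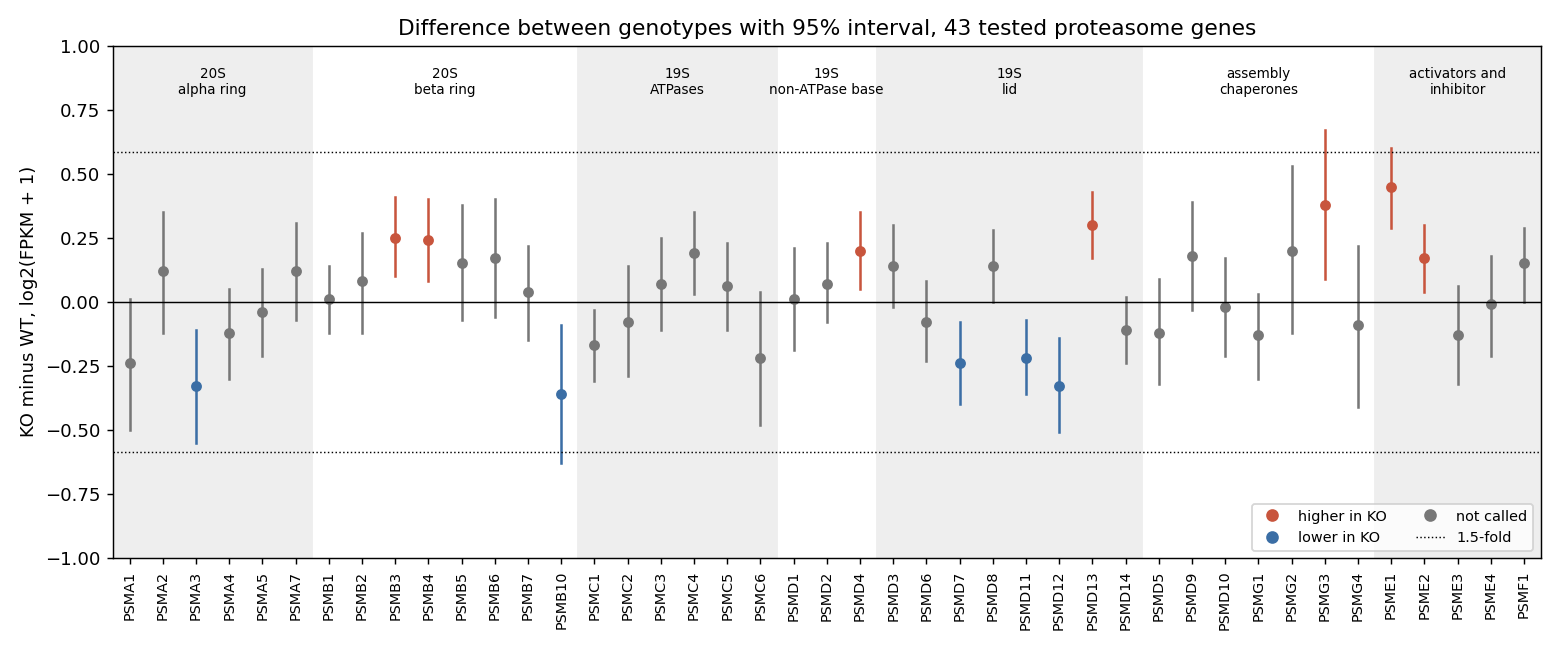
KO minus WT on the log2(FPKM + 1) scale with its 95% interval for the 43 tested members, ordered by their place in the proteasome. Dotted lines mark 1.5-fold in either direction on this scale, and 40 of the intervals lie between them. The added 1 shrinks the differences of low genes.

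In the alpha rings, whose gate controls entry into the barrel, 1 of 6 tested genes changed (16.7%, against 43.4% of all genes tested). PSMA3 was at 33.4, 40.4 and 33.9 FPKM in WT and at 28.7, 26 and 30.1 FPKM in KO. Every KO library lay below every WT library (35.9 ± 3.9 to 28.3 ± 2.1 FPKM, SD, n = 3 each; log2 fold change −0.33, SE 0.09, limma adjusted p = 0.0248). This call was lost without KO 1 (adjusted p = 0.0569) and without KO 2 (0.0918). It was also lost when each library's trend with transcript GC content and length was removed, here called the GC correction (−0.05, adjusted p = 0.547). That step also removes any difference between genotypes that goes with GC content or length. PSMA7, the alpha subunit with the highest level, was at 160.9 to 191.8 FPKM in WT and 186.2 to 198.2 FPKM in KO, which overlap. The log2 fold changes of the other tested alpha subunits (PSMA1, PSMA2, PSMA4 and PSMA5) ran from −0.24 to 0.12. PSMA8, the alpha subunit of the testis, had 0 reads in all 6 libraries.

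In the beta rings 2 genes rose and 1 fell of 8 tested (37.5%, against 43.4% of all genes tested). The 3 genes with the standard proteolytic sites were not called. PSMB5, the chymotrypsin-like subunit and the main target of bortezomib, was at 101.6, 92.8 and 113.7 FPKM in WT and at 122.9, 114.9 and 105.1 FPKM in KO. The genotypes overlapped (log2 fold change 0.15, 95% interval −0.07 to 0.38). PSMB6, the caspase-like subunit, was at 57.0 to 73.5 FPKM in WT and 69.8 to 77.1 FPKM in KO (interval −0.06 to 0.40). PSMB7, the trypsin-like subunit, was at 127.6 to 141.0 and 126.4 to 145.7 FPKM (interval −0.15 to 0.22). These intervals leave room for increases of up to 0.40 on the log2 scale.

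PSMB3, a structural beta subunit, was at 113.1, 126.3 and 125.1 FPKM in WT and at 147.6, 140.5 and 146.6 FPKM in KO. PSMB4, another structural subunit, was at 144.0, 151.7 and 143.8 FPKM in WT and at 161.7, 174.0 and 182.7 FPKM in KO. For both genes every KO library was above every WT library. PSMB3 rose by 0.25 on the log2 scale (SE 0.07, limma adjusted p = 0.0194) and PSMB4 by 0.24 (SE 0.07, adjusted p = 0.0278). The call of PSMB3 was lost without WT 1, KO 1, KO 2 or KO 3 (adjusted p of 0.0853, 0.0563, 0.0522 and 0.0603) and after the GC correction (0.199). The call of PSMB4 was lost without WT 1, WT 3, KO 2 or KO 3 (0.102, 0.0554, 0.0986 and 0.0927) and held after that correction (0.042).

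PSMB10, the immunoproteasome subunit that replaces PSMB7, had the largest decrease in this fit. After quantile normalization, and without WT 1, WT 3 or KO 3, PSMA3 and PSMD12 were below it. In these settings PSMB10 was at −0.33, −0.31, −0.31 and −0.29 on the log2 scale. PSMA3 was at −0.38, −0.38, −0.37 and −0.38, and PSMD12 at −0.34, −0.33, −0.39 and −0.35. PSMB10 had 99, 75 and 97 reads in WT and 64, 76 and 54 reads in KO, or 3.16, 2.43 and 3.15 FPKM against 2.01, 2.38 and 1.76 FPKM. The genotypes did not overlap in FPKM, but WT 2 and KO 2 were nearly equal. The log2 fold change was −0.36 (SE 0.11, limma adjusted p = 0.039). The call was lost without WT 1, WT 3, KO 1 or KO 3 (adjusted p of 0.125, 0.0983, 0.0943 and 0.111). After the GC correction the log2 fold change was −0.56 (adjusted p = 0.00276). The other immunoproteasome subunits, PSMB8 and PSMB9, moved the other way, from 14.4 ± 0.2 to 17.8 ± 1.5 FPKM and from 5.38 ± 0.68 to 7.14 ± 0.10 FPKM (limma adjusted p of 0.0171 and 0.0127; 0.146 and 0.0225 after the GC correction). PSMB8 was not called without WT 1, KO 2 or KO 3 (adjusted p of 0.0566, 0.0679 and 0.0566). PSMB11, the beta subunit of thymic epithelium, had 4 reads in WT and 6 in KO in all.

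Of the 6 ATPases of the 19S base, 0 passed the test by limma, against 43.4% of all genes tested. At an unadjusted p under 0.05, 1 was higher and 1 lower. With limma-voom on the recovered reads 1 was called, PSMC4 (adjusted p = 0.0399). PSMC4 was at 81.1, 82.3 and 92.2 FPKM in WT and at 95.8, 98.8 and 97.3 FPKM in KO, without overlap (log2 fold change 0.19, limma adjusted p = 0.0555). It was also called after quantile normalization (0.0443) and without WT 3 (0.0133). PSMC1 lay the other way, at 14.7 to 16.4 FPKM in WT and 13.6 to 13.8 FPKM in KO (a log2 fold change of −0.17, with an adjusted p of 0.0542). Of the coding bases of PSMC1, 47.7% overlap exons of NRDE2 on the other strand. NRDE2 averaged 1.68 FPKM, and whether the counting used strand is not known here. The remaining 4 ATPases had log2 fold changes of −0.22 to 0.07.

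The members of the base beside the ATPases are PSMD1, PSMD2 and PSMD4. PSMD2, a scaffold that docks ubiquitin-carrying proteins, had the highest level of all members (254.6 to 266.9 FPKM in WT and 256.7 to 284.5 FPKM in KO, which overlap). PSMD4, a ubiquitin receptor, was at 42.1, 43.1 and 46 FPKM in WT and at 52.5, 48.7 and 49.8 FPKM in KO. All KO libraries were above all WT libraries (log2 fold change 0.20, SE 0.06, limma adjusted p = 0.0361). The call was lost in 5 of the 6 analyses that leave out a library: without WT 1, WT 2, KO 1, KO 2 or KO 3 (adjusted p of 0.141, 0.0733, 0.108, 0.0779 and 0.0795). It was also lost after the GC correction (0.341).

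In the lid, 1 gene rose and 3 fell of 8 tested (50%, against 43.4% of all genes tested). After the GC correction 3 were called higher and 2 lower. PSMD13, a structural lid subunit, was at 43.1, 44.3 and 45.1 FPKM in WT and at 52.4, 56.1 and 55.2 FPKM in KO. The libraries of a genotype lay close together and the genotypes stood apart (44.2 ± 1.0 to 54.6 ± 1.9 FPKM, a ratio of 1.24; log2 fold change 0.30, SE 0.06, limma adjusted p = 0.0053). PSMD13 lies on chromosome 11 (plus strand, 236546 to 252984 on GRCh38; ENSG00000185627). PSMD12, another structural subunit of the lid, was at 25.5, 27.9 and 23.1 FPKM in WT and at 19.2, 20.4 and 20.7 FPKM in KO. All KO libraries were below all WT libraries (log2 fold change −0.33, SE 0.08, limma adjusted p = 0.0136). The call held without any single library and was lost after the GC correction (log2 fold change −0.06, adjusted p = 0.269).

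PSMD11, a lid subunit known for raising proteasome assembly in stem cells, was at 37.0, 38.4 and 36.6 FPKM in WT and at 30.1, 32.1 and 33.8 FPKM in KO. PSMD7, the partner of PSMD14, was at 24.2, 27.2 and 25.3 FPKM in WT and at 20.6, 22.6 and 21.3 FPKM in KO. For neither gene did the genotypes overlap. Of the coding bases of PSMD7, 30% lie in exons of a gene on the other strand. Their log2 fold changes were −0.22 (SE 0.06, limma adjusted p = 0.0279) and −0.24 (SE 0.07, adjusted p = 0.0252), and after the GC correction both were −0.24 (0.00743 and 0.00848). PSMD11 was not called without WT 1, WT 2, KO 1 or KO 2 (adjusted p of 0.0839, 0.0644, 0.0866 and 0.0886), nor PSMD7 without WT 2, KO 1 or KO 3 (0.0587, 0.0813 and 0.0705). PSMD14, the deubiquitinase, was at 25.1, 24.3 and 24.3 FPKM in WT and at 22.8, 22.0 and 23.6 FPKM in KO. It had no overlap and did not pass (log2 fold change −0.11, adjusted p = 0.164). Its transcript has the lowest GC content of the tested members (32%), and after the GC correction it was called higher (log2 fold change 0.37, adjusted p = 0.0022).

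Among 7 chaperones of proteasome assembly 1 rose (14.3%, where 43.4% of all genes tested were called and 21.0% rose). PSMG3 was at 24.2, 21.2 and 28.3 FPKM in WT and at 32.7, 35.7 and 28.1 FPKM in KO. KO 3 lay below WT 3, so the genotypes overlapped (log2 fold change 0.38, SE 0.12, limma adjusted p = 0.0432). The call was lost without WT 1, WT 2, KO 1 or KO 2 (adjusted p of 0.11, 0.105, 0.107 and 0.138) and after the GC correction (0.123). PSMG1 and PSMG2, which work as a pair on the alpha ring, had intervals of −0.30 to 0.03 and −0.12 to 0.53. PSMG4, the partner of PSMG3, was at 1.56 to 2.65 FPKM in WT and 1.74 to 2.03 FPKM in KO (interval −0.41 to 0.22). The chaperones of the 19S base, PSMD5, PSMD9 and PSMD10, had log2 fold changes between −0.12 and 0.18.

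Of 5 activators and inhibitors 2 rose (40.0%, where 43.4% of all genes tested were called and 21.0% rose). PSME1, the alpha subunit of the PA28 cap that serves antigen processing, was at 43.9, 46.4 and 50.5 FPKM in WT and at 65.3, 62.8 and 64.5 FPKM in KO. It had the largest increase in this fit; PSMG3 was above it without KO 3 (0.47 against 0.44 on the log2 scale), as was PSMD14 after the GC correction (0.37 against 0.30). The lowest KO library was above the highest WT library (46.9 ± 3.3 to 64.2 ± 1.3 FPKM, a ratio of 1.37; log2 fold change 0.45, SE 0.07, limma adjusted p = 0.00205). After the GC correction the log2 fold change was 0.30 (adjusted p = 0.0033). PSME1 lies on chromosome 14 (plus strand, 24136158 to 24138967 on GRCh38; ENSG00000092010). PSME2, the beta subunit of the same cap and a close neighbour on that chromosome, was at 17.7, 17.3 and 17.4 FPKM in WT and at 19.9, 20.4 and 18.9 FPKM in KO. Its KO libraries were above its WT libraries (log2 fold change 0.17, SE 0.06, limma adjusted p = 0.0457). This call was lost whichever library was left out: WT 1, WT 2, WT 3, KO 1, KO 2 or KO 3 (adjusted p of 0.115, 0.0871, 0.065, 0.117, 0.169 and 0.0576). It was lost after the correction too (0.367). PSME3, which forms the nuclear PA28 cap, and PSME4, the PA200 cap, were not called, with intervals of −0.32 to 0.06 and −0.21 to 0.18. PSMF1, an inhibitor of the 20S particle, was at 22.0 to 23.8 FPKM in WT and 24.5 to 26.4 FPKM in KO (a difference of 0.15 on the log2 scale, adjusted p = 0.0891).

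The deposited levels of the subunits covered a wide range. Means over the 6 libraries ran from 0.377 FPKM for PSMA6 to 186.6 FPKM for PSMA7 among the standard alpha subunits. PSMA6 had 46, 31 and 54 reads in WT and 60, 29 and 28 reads in KO. A feature of the annotation went with low levels. Between 60.0% and 100% of the coding bases of PSMA1, PSMA2, PSMA6, PSMB10 and PSMD9 also lie in exons of another annotated gene on the same strand (88.6%, 100%, 87.6%, 60.0% and 68.3%). In the other 39 expressed members this share was at most 0.1%. The 5 genes had mean levels of 0.377 to 8.72 FPKM, median 1.52, against 2.0 to 265.4 FPKM, median 34.7, in the 39. The overlapping genes themselves were at a mean of 0.172 FPKM or less.

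**Figure D3:**
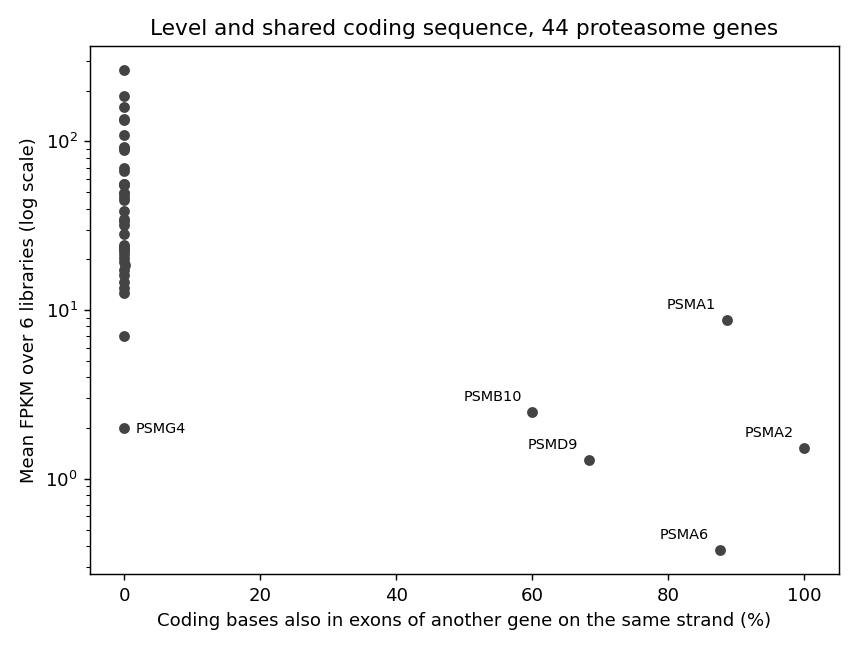
Mean FPKM over the 6 libraries, on a log axis, against the percent of a member's coding bases that also lie in exons of another gene on the same strand; each point is 1 of 44 members (PSMA8 and PSMB11 left out). The 5 named genes on the right share 60.0% to 100% and lie at 8.72 FPKM or below; PSMG4 at the left has a mean of 2.0 FPKM without sharing.

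How reads in shared exons were counted is not known here, and its part in these levels was not tested. The counted length also differs from the mRNA: it is the union of all annotated exons, 10418 bases for PSMG4 against 629 bases in its transcript with the longest coding part. Divided by that transcript's length in place of the union, the levels were 2.79 to 22.7 FPKM in the 5 genes and 9.04 to 419.7 FPKM in the 39. Levels of different subunits are therefore not comparable from these values, while the ratio of FPKM in KO to WT within a gene does not depend on the length. The filter at a mean of 1 FPKM and the differences on the log2(FPKM + 1) scale do depend on it. PSMA6 failed the filter at 0.377 FPKM and was at 2.79 FPKM by the transcript's length. The log2 fold change of PSMB10 was −0.36, and −0.49 with a pseudocount of 0.1. Pseudogenes named after the members took few reads: 32 such rows held 750 reads in all 6 libraries, against 751334 reads in the members.

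GC content moved with the members' differences. Across the 43 tested members the Spearman correlation of the log2 fold change with the GC content of the longest transcript was 0.54, and it was 0.44 across 11992 tested genes; members share the libraries and are not independent replicates. Of 12 members under 42% GC, 10 had a negative log2 fold change, and of 17 members over 50% GC, 15 had a positive one. The members that rose had 48.2% to 58.8% GC. Among those that fell, PSMA3 and PSMD12 had 36.7% and 37.9% GC, while PSMB10 had 60.1%. The libraries differed in the same way. Across genes, the distance of a library from the mean of all libraries had a Spearman correlation with GC content of −0.40, −0.62 and −0.01 in WT 1 to 3 and of 0.46, 0.44 and 0.23 in KO 1 to 3. The genotypes did not overlap in these correlations. A technical GC trend and a difference between genotypes that goes with GC content cannot be told apart here, and the correction removes both. With each library's trend with GC content and length removed, 7 members were higher and 6 lower (30.2%, against 43.4% of all genes tested). These were partly different genes. Of the 12 calls 6 remained, those of PSME1, PSMD13, PSMB4, PSMB10, PSMD7 and PSMD11. In addition PSMA2, PSMA5, PSMD6 and PSMD14 were called higher (PSMA5, PSMD6 and PSMD14 with a change of sign, to 0.25, 0.19 and 0.37) and PSMC1, PSME3 and PSMG1 lower.

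**Figure D4:**
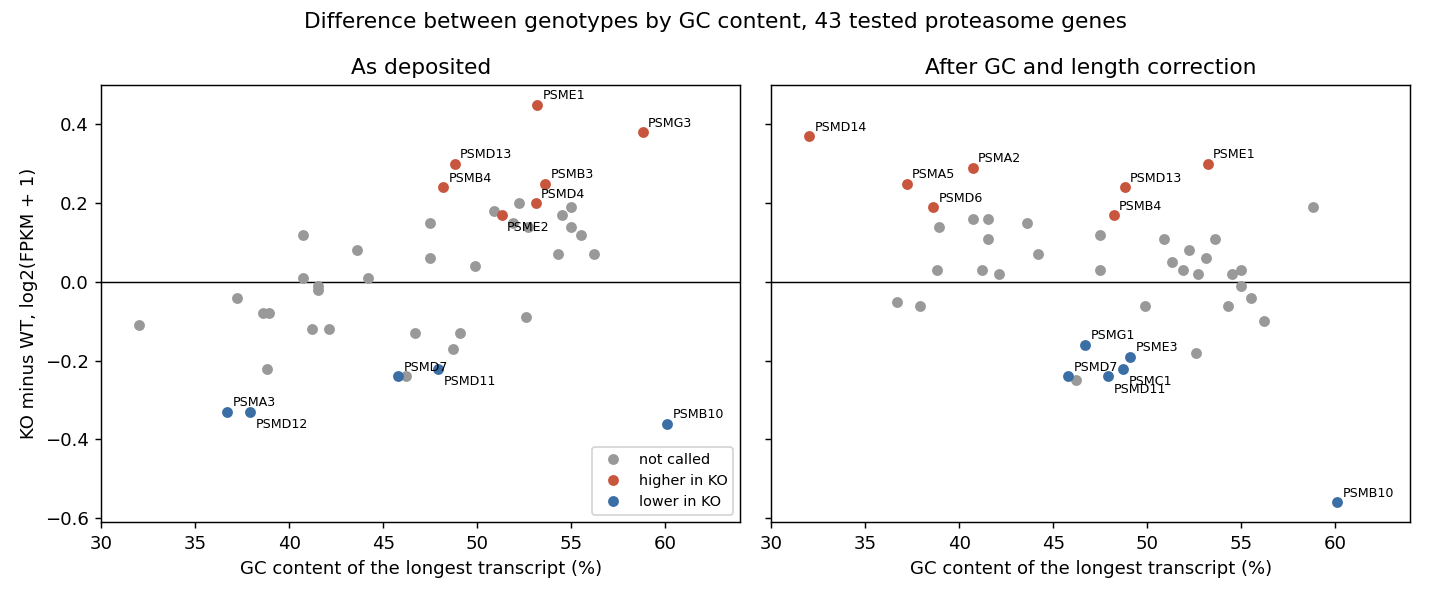
KO minus WT on the log2(FPKM + 1) scale against the GC content of the longest transcript, for the 43 tested members before (left) and after (right) removal of each library's trend with GC content and length. Points on the left rise with GC content (Spearman correlation 0.54), points on the right lean the other way (−0.29), and named points passed the test in that panel.

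The chromosomal surroundings moved with some members too. Over the 43 members, the Spearman correlation of the log2 fold change with the median of the tested genes within 10 Mb was 0.63, a description in which members on the same chromosome share neighbours. PSMG3, near the start of chromosome 7, rose by 0.38 on the log2 scale where the median of its 64 tested neighbours was 0.44. PSMD7 and PSMB10 lie on the long arm of chromosome 16, as ADGRG1 does, and fell by 0.24 and 0.36. Their neighbours had medians of −0.26 and −0.24, over 119 and 113 genes. PSMB4, PSMD4 and PSME2 rose by 0.24, 0.20 and 0.17 where their neighbours had medians of 0.17, 0.16 and 0.13. PSMA3 had a log2 fold change of −0.33 and neighbours with a median of −0.16. By contrast, PSMD12, PSMD11 and PSMB3 on chromosome 17 had neighbours with medians of 0.02, 0.02 and 0.01. PSME1 rose by 0.45 where its neighbours had a median of 0.13, and PSMD13 by 0.30 where they had one of 0.08. The part of the region in these differences was not tested.

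**Figure D5:**
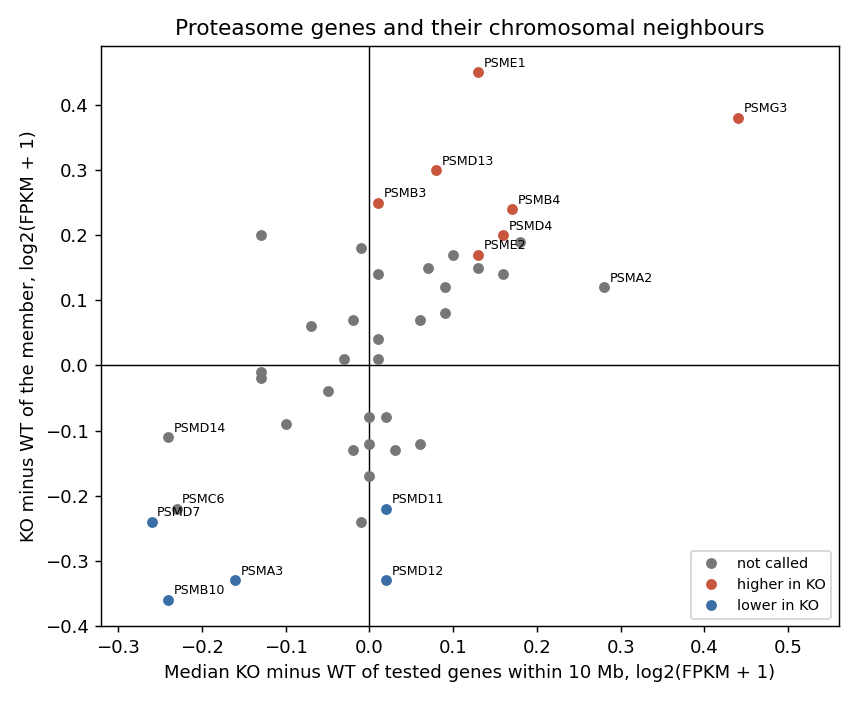
KO minus WT of each tested member against the median KO minus WT of the tested genes within 10 Mb, both on the log2(FPKM + 1) scale. PSMG3 sits at 0.44 on the horizontal axis and PSMD7 and PSMB10 at −0.26 and −0.24, while PSMB3, PSMD11 and PSMD12 sit near 0.

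Genes around the proteasome were compared with the same test. Counted once each, 44 genes of 5 lists were tested, and 7 rose and 12 fell (43.2%, against 43.4% of all genes tested). Without WT 1 or without KO 2, 10 of the 44 were called. Among 14 assembly and 26S-associated factors 2 rose and 3 fell (35.7%, against 43.4% of all genes tested), with a median log2 fold change of −0.14. After the GC correction 4 were higher and 3 lower, with a median of −0.00. Without KO 1 or without KO 2, 1 fell, and without WT 1 or without KO 2, 1 rose. Of all genes tested, 35.2% were called without KO 1. POMP, the chaperone that starts beta ring assembly, was at 113.0, 122.0 and 111.8 FPKM in WT and at 146.9, 148.2 and 160.6 FPKM in KO. All KO libraries lay above WT (log2 fold change 0.39, SE 0.07, limma adjusted p = 0.00364), and the value after the GC correction was 0.74. PAAF1, an ATPase chaperone, rose from 2.17 ± 0.32 to 3.22 ± 0.45 FPKM (adjusted p = 0.0194; 0.0699 without WT 1 and 0.0652 without KO 2). PITHD1 fell from 32.6 ± 1.7 to 24.4 ± 0.5 FPKM (adjusted p = 0.00206). ECPAS, a proteasome adaptor and scaffold, fell from 24.2 ± 2.2 to 19.6 ± 1.0 FPKM (adjusted p = 0.0231; 0.0755 without KO 1 and 0.0668 without KO 2). The third gene that fell was UCHL5, a proteasome-bound deubiquitinase (9.59 ± 1.30 to 7.30 ± 0.75 FPKM, adjusted p = 0.0352). That call was lost without WT 1, WT 2, KO 1 or KO 2 (0.0955, 0.0845, 0.1 and 0.113), and the value was 0.01 after the GC correction.

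Of 7 regulators of proteasome transcription 5 fell, where 22.4% of all genes tested fell, and the median log2 fold change was −0.31. Without WT 1 or without KO 2, 3 of them fell. By limma 0 were called higher, as by limma-voom, and 0 were higher at an unadjusted p under 0.05. NFE2L1 was at 73.4, 66.2 and 79.3 FPKM in WT and at 62.0, 61.0 and 54.8 FPKM in KO. Its KO libraries lay below its WT libraries (log2 fold change −0.29, SE 0.09, limma adjusted p = 0.028). The call was lost without WT 1, WT 3, KO 2 or KO 3 (adjusted p of 0.087, 0.0608, 0.0664 and 0.0872) and held after the GC correction (log2 fold change −0.43, adjusted p = 0.00144). DDI2, the protease that cleaves NFE2L1 into its active form, fell from 3.75 ± 0.14 to 2.64 ± 0.12 FPKM (log2 fold change −0.38, adjusted p = 0.00362; −0.24 after the GC correction). NFE2L2, the related antioxidant regulator, fell from 12.5 ± 1.5 to 9.47 ± 0.71 FPKM (adjusted p = 0.0199). That call was lost without WT 1, WT 2, KO 1 or KO 2 (0.0734, 0.0527, 0.0623 and 0.0728). Of the NF-Y subunits, which bind CCAAT boxes, NFYB fell from 4.31 ± 0.23 to 2.47 ± 0.38 FPKM and NFYA from 11.8 ± 0.4 to 9.29 ± 0.64 FPKM (adjusted p of 0.00227 and 0.00902). The log2 fold change of NFYB was −0.62, and −0.30 after the GC correction. NFYC was at 7.28 ± 0.74 and 8.20 ± 0.24 FPKM (0.146). NGLY1, which removes sugars from NFE2L1, was at 3.97 ± 0.68 and 4.26 ± 0.10 FPKM (0.512; called higher at 0.00372 after the correction).

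Of 6 ubiquitin genes and activating enzymes 3 rose and 1 fell (66.7%, against 43.4% of all genes tested). By limma 0 rose without WT 1 or without KO 3, and 1 rose without KO 2 and after the GC correction. UBA6, the second ubiquitin-activating enzyme, had the largest difference, at 8.63, 9.73 and 7.17 FPKM in WT and 5.10, 4.35 and 5.06 FPKM in KO (log2 fold change −0.70, limma adjusted p = 0.0025; −0.33 after the GC correction, adjusted p = 0.0083). UBA1, the main activating enzyme, was higher (61.6 ± 1.2 to 71.7 ± 3.5 FPKM, adjusted p = 0.0245), as was RPS27A, which encodes ubiquitin fused to a ribosomal protein (187.2 ± 16.9 to 228.0 ± 12.2 FPKM, adjusted p = 0.0294). Both increases lost their call without some of the libraries. For UBA1 these were WT 1, KO 2 and KO 3 (0.101, 0.105 and 0.0813). For RPS27A they were WT 1, WT 3, KO 1 and KO 3 (0.112, 0.0691, 0.0772 and 0.0888). UBA1 was not called after the GC correction either (0.385), while RPS27A was (0.00403). Of 9 shuttle and segregase genes 3 fell, DDI2, UBQLN1 and RAD23B (33.3%, where 43.4% of all genes tested were called and 22.4% fell). By limma 0 rose, as by limma-voom, and 1 was higher at an unadjusted p under 0.05; without WT 3, 1 rose. VCP, the segregase ATPase that extracts ubiquitinated proteins, was at 116.1 to 125.0 FPKM in WT and 108.9 to 116.8 FPKM in KO (log2 fold change −0.09, interval −0.23 to 0.06); after the GC correction it was called lower (−0.19, adjusted p = 0.0259). UBQLN1 was lower as deposited (log2 fold change −0.29, adjusted p = 0.0127) and at 0.02 after the GC correction (0.752). RAD23B (log2 fold change −0.23, adjusted p = 0.0239) lost its call after the correction (0.263) and without WT 1, WT 2, KO 2 or KO 3 (0.058, 0.0502, 0.099 and 0.0803).

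The COP9 signalosome takes NEDD8 off cullins and is built like the proteasome lid. Of its 9 genes 2 were higher and 1 lower (33.3%, against 43.4% of all genes tested), with a median of −0.01. Without WT 1, KO 2 or KO 3, 1 was higher. COPS2, the counterpart of PSMD11, was at 15.1, 18.6 and 12.8 FPKM in WT and at 8.89, 7.83 and 9.41 FPKM in KO. All KO libraries were lower (log2 fold change −0.75, SE 0.13, limma adjusted p = 0.00382; −0.34 after the GC correction, adjusted p = 0.0195). GPS1 rose from 31.5 ± 0.8 to 43.6 ± 1.9 FPKM (log2 fold change 0.46, adjusted p = 0.00104; 0.26 after the correction). COPS7A rose from 20.8 ± 0.4 to 24.1 ± 1.2 FPKM (adjusted p = 0.0289; 0.472 after the correction, and 0.112, 0.0982 and 0.0974 without WT 1, KO 2 or KO 3).

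Because proteasome genes are known to be driven together from their promoters, the sequences upstream of called members were compared with those of the other members. RefSeq promoters on GRCh38.p14, from −250 to 50 bases around a start, were found for 40 of 46 members; PSMA7, PSMB1, PSMB6, PSMB7, PSMD4 and PSMG3 had no entry. Both strands were searched for TGACNNNGC, the core of the antioxidant response element bound by NFE2L1 and NFE2L2, and for CCAAT, the NF-Y box; neither motif can contain the other. TGACNNNGC was in 29.2% of the 48 member promoters and in 13.3% of all 35116 promoters of that length. CCAAT was in 39.6% and 34.6%. By gene, TGACNNNGC was found for 3 of 5 members that rose, 1 of 5 that fell and 10 of 27 that were not called. CCAAT was found for 1 of 5, 2 of 5 and 15 of 27. A match is a description of these letters and shows no binding.

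The stretches below are shown for the members with the largest increases and decreases whose upstream window is mainly free of annotated exons, so that members that rose and fell can be read side by side. Each runs 5′ to 3′ on the gene's strand, stops before the first annotated exon, and has the matches to TGACNNNGC or CCAAT (on either strand) in capitals. PSME1 lies at chr14:24135944-24136157 on the plus strand and PSMB3 at chr17:38752491-38752735 on the plus strand, and both rose. PSMA3 at chr14:58244593-58244830 on the plus strand and PSMD12 at chr17:67366628-67366827 on the minus strand fell.
PSME1: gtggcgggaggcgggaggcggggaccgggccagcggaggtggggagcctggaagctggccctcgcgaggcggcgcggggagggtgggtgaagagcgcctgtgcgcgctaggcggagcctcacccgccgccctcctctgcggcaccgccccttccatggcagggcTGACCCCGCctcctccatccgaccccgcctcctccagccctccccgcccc
PSMB3: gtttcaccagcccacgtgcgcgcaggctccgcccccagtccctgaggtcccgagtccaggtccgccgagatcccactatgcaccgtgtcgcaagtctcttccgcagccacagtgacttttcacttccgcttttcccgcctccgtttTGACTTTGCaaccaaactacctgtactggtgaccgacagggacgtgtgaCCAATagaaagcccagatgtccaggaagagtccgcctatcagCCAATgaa
PSMA3: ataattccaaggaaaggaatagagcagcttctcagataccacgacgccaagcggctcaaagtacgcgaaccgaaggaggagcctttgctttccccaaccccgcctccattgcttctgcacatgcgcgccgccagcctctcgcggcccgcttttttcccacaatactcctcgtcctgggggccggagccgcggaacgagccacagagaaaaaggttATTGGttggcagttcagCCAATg
PSMD12: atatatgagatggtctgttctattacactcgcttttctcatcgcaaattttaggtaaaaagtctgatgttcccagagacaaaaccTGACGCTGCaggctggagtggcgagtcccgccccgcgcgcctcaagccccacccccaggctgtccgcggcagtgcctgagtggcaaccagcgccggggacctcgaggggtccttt

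Genes that rose and genes that fell both carried each kind of match. PSME1 has TGACCCCGC from 86 to 78 bases before the start, in a stretch of 78.0% GC. PSMB3 has TGACTTTGC from 104 to 96 bases before the start and more than 1 CCAAT closer to it. PSMA3 has CCAAT on both strands within 35 bases of the start and no TGACNNNGC, and PSMD12 has TGACGCTGC from 165 to 157 bases before the start and no CCAAT.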

How the data were processed

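The authors deposited 1 table of FPKM values for 58735 genes, with 1 column per library, per the file headers. Which aligner, counter and strand setting made them is not stated in any label or header used here. GRCm38 and mm10, both mouse builds, stand in the submitters' processing notes, but starts, ends and strands of all 58735 genes, and their lengths as unions of exons, equal human GENCODE 29 (GRCh38). FPKM times length gave whole reads for 100% of values in every library (within 0.02 read). Read counts of libraries of 1 genotype gave a chi-square of 4.92 to 16.5 per degree of freedom, so none were treated as repeat deposits of 1 library. This does not show that they are separate cultures.

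All 6 libraries were fitted with limma 3.58.1 in R 4.3.3 (lmFit, eBayes with trend) on log2(FPKM + 1), for the 12000 genes whose mean FPKM reached 1. Genotype was the only term. Tests were two-sided, adjusted by Benjamini-Hochberg over all genes tested (threshold 0.05), and the script was tested on simulated data. The pseudocount understates changes of low genes. GC content is that of the longest transcript in GENCODE 29, and the correction removed each library's spline trend (4 degrees of freedom each) with GC content and log2 length. The trend was fitted to each library's distance from the mean over all libraries, with genotype not in that fit. Alternatives were a pseudocount of 0.1, no filter, a filter at 5 FPKM, quantile normalization, limma-voom on recovered reads, the GC and length correction, a replicate block, and leaving out each library. The correction together with the block was added after seeing the data.

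The members and lists were chosen with earlier results of these data known. Named were ADGRG1, called members without overlap (up to 10 each way), a fixed set of catalytic, tissue-specific, regulatory and chaperone members, PSMB8 and PSMB9, and up to 4 called genes per list with the smallest adjusted p, plus POMP, NFE2L1 and VCP. Other genes were named where a count was small or a level stood out, after their values were seen. A gene that this rule names in the related lists is counted there but not reported here.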

Additional observations from a re-analysis of the deposited data

How the results depend on the processing

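A single read in 1 kb of gene was worth 0.0581 to 0.0602 FPKM, and PSMA6 and PSMB11 were too low to test. The members that rose (7) numbered 4 with no filter, 4 after quantile normalization, 2 with the replicate block and 3 with the block and the GC and length correction. Those that fell (5) numbered 3 with no filter and 1 with the block. With no filter 15.6% of the members were called, against 15.9% of all genes tested. After quantile normalization the shares were 20.9% and 43.2%, and with the block 6.98% and 32.2%. With the block and the correction they were 18.6% and 35.3%. Leaving out 1 library gave 2 to 9 higher, 1 to 6 lower and medians of −0.00 to 0.07. In these fits 9.3% to 34.9% of the members were called, against 31.6% to 44.8% of all genes tested. The median of 0.04 became −0.02 after quantile normalization. The cause of these shifts was not tested. In all 14 alternatives PSME1 (log2 fold change 0.30 to 0.50) and PSMD13 (0.23 to 0.33) kept their call, and all 12 called members kept their direction wherever they were tested.

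The call count over all genes was 5207, and 3203 with the filter at 5 FPKM, where fewer genes were tested (7053). Leaving out a library gave 3789 to 5372. Of the 44 genes in related lists 19 were called, 10 with the replicate block and 10 to 19 without a library. The share over all genes tested was 32.2% with the block. It was 31.6% to 44.8% without a library. ADGRG1 stayed between −1.10 and −1.03 in the fits without a library. After the GC and length correction, with and without the block, PSMD14 turned from −0.11 to 0.37, UBQLN1 from −0.29 to 0.02 and UCHL5 from −0.35 to 0.01. So did PSMA5, from −0.04 to 0.25, and PSMD6, from −0.08 to 0.19, which were called without the block (adjusted p of 0.0311 and 0.0214) and not with it (0.0763 and 0.0737). Libraries with the same number did not deviate together (correlations of −0.074, −0.184 and −0.348 between WT and KO), and no library correlated best with its own number. With 3 libraries per genotype this cannot show whether samples of the same number were prepared together, and the labels do not say. With the block, PSMD12, PSMD13 and PSME1 were the members called.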
